A study of Homo sapiens with 6 samples.

Results

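RNA polymerase I and the nucleolar factors that build ribosomes were followed through 41 genes, taken by name, out of 17811 genes listed for 22RV1 cells. They comprised 5 polymerase subunits, 6 initiation factors, 3 proteins of box C/D and 4 of box H/ACA small nucleolar ribonucleoproteins, 4 nucleolar phosphoproteins, the 3 GTP-binding proteins GNL2, GNL3 and GNL3L, and 16 assembly factors of the large and small ribosomal subunits. All 41 symbols had a row in the table, and all 41 reached the 10 normalized reads in 2 libraries that a gene needed to be tested.

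22RV1 is an established human prostate cancer line, and its polyadenylated RNA was sequenced in 6 libraries. The study asked what knocking down IMPA1 or IMPDH2 does to the transcriptome, and each of 3 groups had 2 libraries: shIMPA1 cells carried a stable hairpin against IMPA1, an inositol monophosphatase, shIMPDH2 cells one against IMPDH2, which catalyses the committed step of guanine nucleotide synthesis, and shLuc control cells one against luciferase. All 3 stable lines grew in RPMI-1640 medium with fetal bovine serum. The labels number the libraries of a group but do not say whether they are separate cultures or separate hairpins. The error in each test rests on differences between libraries of the same group, pooled over all 3 groups and shared in part across genes. This may be technical variation alone. A test of shIMPDH2 against shLuc thus also carries the spread of the shIMPA1 libraries.

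RNA polymerase I copies the ribosomal RNA genes in the nucleolus into a single long precursor. UBTF keeps these genes open, the SL1 complex of TBP with TAF1A, TAF1B, TAF1C and TAF1D marks the promoter, and RRN3 carries the polymerase to it. Box C/D particles then methylate the precursor and box H/ACA particles convert uridines to pseudouridines, while assembly factors fold, cut and export the subunits. The pathway uses GTP as a substrate of transcription and as a ligand of nucleolar GTPases, and in many cells MYC raises the transcription of its genes. The polyadenylated RNA measured here reports the messenger RNAs of these factors and not ribosomal RNA itself, and a change in a bulk library cannot tell fewer expressing cells from less RNA per cell.

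The libraries held 26215122 and 27601249 reads in shIMPA1, 20828900 and 22442454 in shIMPDH2, and 27405563 and 27773294 in shLuc, over the listed genes. Each deposited value is a read count divided by 1 size factor of its library and is called a normalized read below. The targeted genes were lower in their own knockdown. IMPA1 had 957 and 1101 normalized reads in shIMPA1 against 1621 and 1331 in shLuc (log2 fold change -0.52, adjusted p = 0.0145 by limma), and IMPDH2 had 2932 and 3166 in shIMPDH2 against 4269.9 and 5032 in shLuc (log2 fold change -0.60, adjusted p = 0.00999). All 10 prostate epithelial markers checked, KRT8 and KRT18 among them, had reads, whereas the 4 stromal markers with values summed to between 0.00118% and 0.00168% of the reads in shIMPA1, 0.000847% and 0.000907% in shIMPDH2, and 0.00209% and 0.00228% in shLuc. The shIMPA1 libraries differed most from each other: 934 genes were over 2-fold apart between them, against 398 in shIMPDH2 and 266 in shLuc.

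In shIMPA1 cells, 15 of the 41 genes passed an adjusted p of 0.05 by limma with Benjamini-Hochberg adjustment over 17742 genes. Of these, 10 rose (RRN3, RRP12, UTP15, GNL3, NOP16, NOP14, POLR1D, GAR1, RRP1 and NOP56) and 5 fell (TCOF1, FBL, LAS1L, POLR1E and WDR12). This was 36.6% of the members, beside a background of 30.2% of all genes tested, of which 14.0% rose and 16.2% fell. The median log2 fold change of the members was 0.006, beside 0.016 for all genes. In shIMPDH2 cells, 2 of the 41 fell, FBL and WDR75, and none rose, which was 4.88% of the members beside a background of 17.0% of all genes (7.86% rose and 9.15% fell). At an unadjusted p under 0.05, 1 member was higher in shIMPDH2 by limma, and edgeR and DESeq2 each called 0 higher. Their median was 0.058, beside -0.006 for all genes. No member changed by as much as 2-fold in either knockdown, whereas 3.91% of all genes rose and 6.92% fell more than 2-fold in shIMPA1, and 1.97% and 4.59% did so in shIMPDH2. Together the 41 genes took 0.631% and 0.659% of the reads in shIMPA1, 0.608% and 0.633% in shIMPDH2, and 0.627% and 0.637% in shLuc. Both knockdowns were set against the same shLuc libraries, so their values are given side by side and are not independent. The calls were sensitive to single libraries and to how the spread was estimated. Leaving out 1 library gave 3 to 13 members higher and 1 to 10 lower in shIMPA1, and of the 15 calls 6 were kept when shLuc replicate 1 was left out, 4 when shLuc replicate 2 was, and 7 when either shIMPDH2 library was. In shIMPDH2, none was called without either shLuc or either shIMPDH2 library, and 3 were higher and 6 lower without either shIMPA1 library or with 2 groups only. Without a mean-variance trend, 4 of the 15 shIMPA1 calls (RRN3, FBL, RRP12 and UTP15) and 0 of the 2 shIMPDH2 calls remained. Counts over all genes moved with these settings too. In shIMPDH2 they went from 3018 to 6382 with 2 groups only. Without the trend they were 3508 in shIMPA1, from 5361, and 1727 in shIMPDH2. The closing section gives those with 1 library left out.

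**Figure D1:**
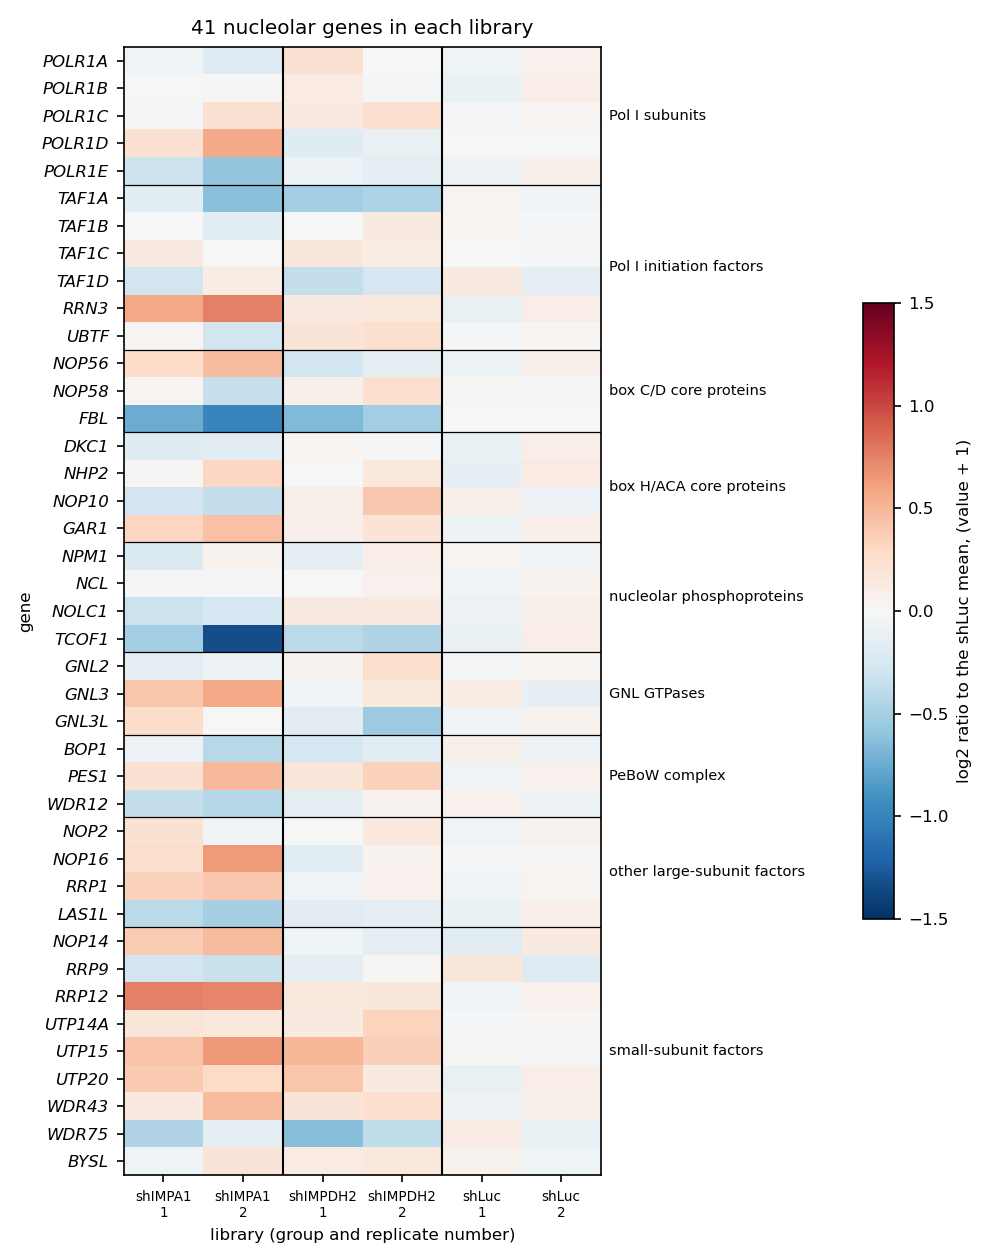
Each of the 41 genes (rows, by role) in each of the 6 libraries (columns, shIMPA1, shIMPDH2 and shLuc, 2 each), as log2 of the ratio to the shLuc mean on the (value + 1) scale, red for higher and blue for lower. RRN3 and RRP12 are red in both shIMPA1 libraries, FBL is blue in all 4 knockdown libraries, and TCOF1 is darkest in shIMPA1 replicate 2, where it had 1254 normalized reads.

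**Figure D2:**
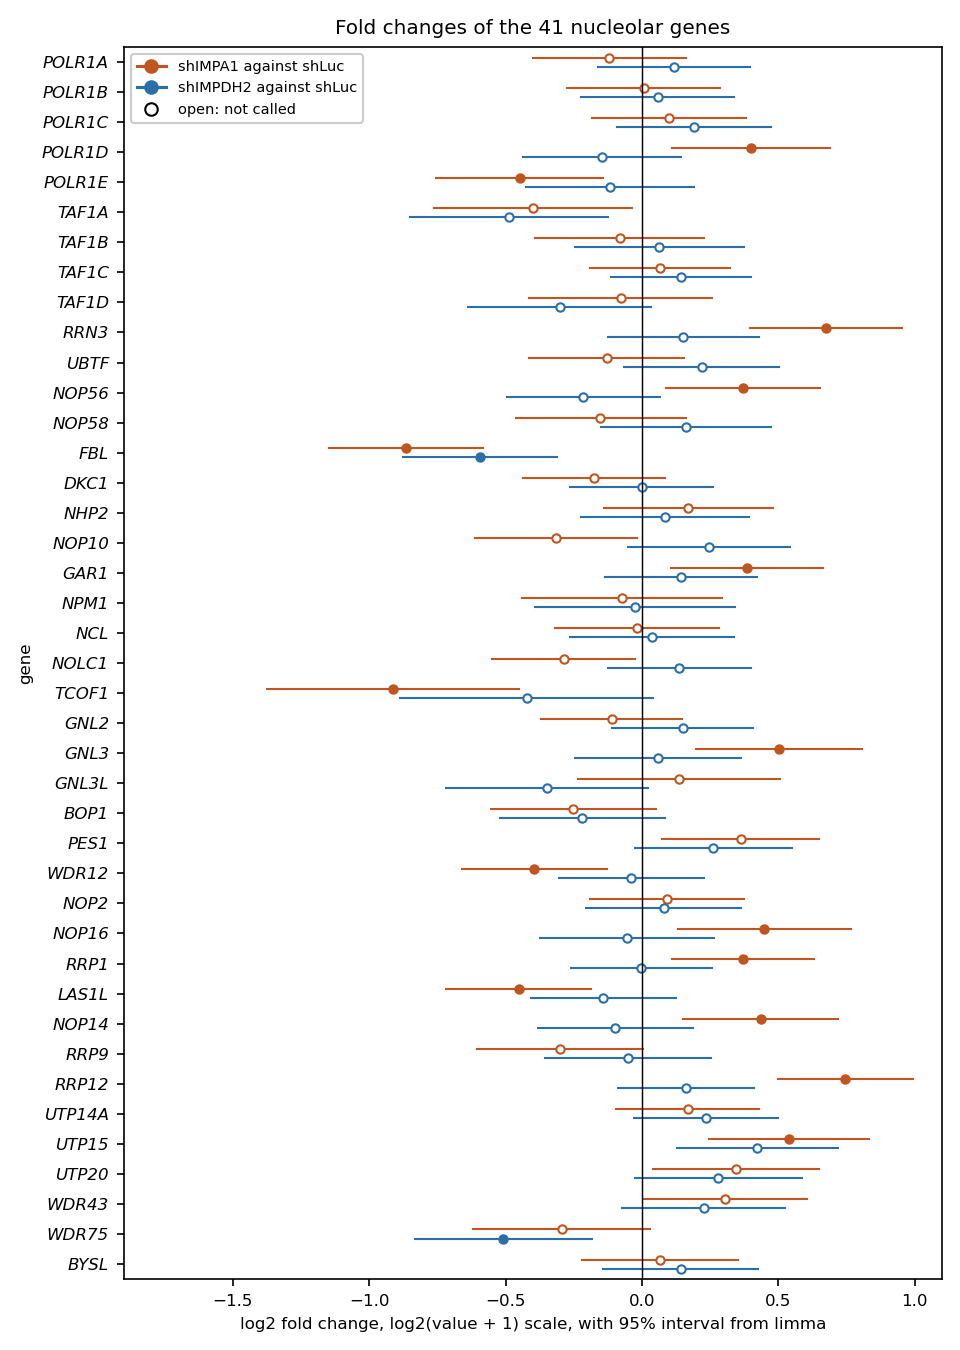
Log2 fold change of each of the 41 genes (rows) in shIMPA1 (orange) and shIMPDH2 (blue) against shLuc, on the log2(value + 1) scale, with its 95% interval from limma; filled points passed an adjusted p of 0.05. In shIMPA1, 15 points are filled and span -0.91 (TCOF1) to 0.75 (RRP12), and in shIMPDH2 only FBL and WDR75 are filled.

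The promoters of these genes are shown because many share the hexamer CACGTG, the canonical E-box, which MYC with MAX can bind among other factors. RefSeq windows on GRCh38.p14, 250 bases before to 50 bases after an annotated start, were at hand for 35 of the 41 genes, and 13 of these held CACGTG (37.1%). The hexamer reads the same on both strands, so each match is counted once. It was present in 7.26% of the 35116 windows of the table, in 12.2% of the 12339 listed genes with a window, and in 26.7% of 86 other genes of RNA polymerase I and ribosome assembly. Of the 13 genes, 4 changed in a knockdown, GAR1, GNL3 and NOP14 upwards in shIMPA1 and FBL downwards in both. Over all genes tested, 30.2% were called in shIMPA1 and 17.0% in shIMPDH2. GAR1 and GNL3 each have 2 windows, of which the one with the hexamer is shown. The 4 windows follow, in lower case with CACGTG in capitals, 5′ to 3′ on the gene's strand.
FBL, chr19:39846330-39846629, minus strand: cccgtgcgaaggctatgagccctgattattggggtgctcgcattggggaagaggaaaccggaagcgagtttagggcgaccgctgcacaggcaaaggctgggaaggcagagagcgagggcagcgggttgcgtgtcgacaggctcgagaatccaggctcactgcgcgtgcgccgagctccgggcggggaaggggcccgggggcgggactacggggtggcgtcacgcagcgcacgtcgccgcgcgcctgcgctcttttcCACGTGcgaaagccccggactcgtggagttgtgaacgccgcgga
GAR1, chr4:109815512-109815811, plus strand: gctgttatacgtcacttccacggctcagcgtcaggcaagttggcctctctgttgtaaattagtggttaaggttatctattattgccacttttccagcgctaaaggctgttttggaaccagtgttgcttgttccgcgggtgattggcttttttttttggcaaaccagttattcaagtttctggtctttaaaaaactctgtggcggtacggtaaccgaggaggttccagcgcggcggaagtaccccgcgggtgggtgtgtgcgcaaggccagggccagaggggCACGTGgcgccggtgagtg
GNL3, chr3:52685782-52686081, plus strand: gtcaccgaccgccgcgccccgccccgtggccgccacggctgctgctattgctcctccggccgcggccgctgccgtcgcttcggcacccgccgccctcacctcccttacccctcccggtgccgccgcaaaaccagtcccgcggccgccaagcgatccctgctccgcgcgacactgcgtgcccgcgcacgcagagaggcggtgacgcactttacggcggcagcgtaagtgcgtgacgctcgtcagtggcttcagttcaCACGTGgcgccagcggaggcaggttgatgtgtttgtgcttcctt
NOP14, chr4:2963357-2963656, minus strand: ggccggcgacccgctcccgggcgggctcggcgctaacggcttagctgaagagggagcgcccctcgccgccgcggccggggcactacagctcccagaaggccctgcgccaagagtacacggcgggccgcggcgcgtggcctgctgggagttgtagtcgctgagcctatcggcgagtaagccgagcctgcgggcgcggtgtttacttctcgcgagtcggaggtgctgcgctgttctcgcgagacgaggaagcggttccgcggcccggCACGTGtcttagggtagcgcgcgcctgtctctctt
Counting from the annotated start as base 1, the hexamer began at base 7 in FBL and in GNL3, at base 16 in NOP14 and at base 32 in GAR1. Of the 13 genes with the hexamer, 3 rose and 1 fell in shIMPA1 (median log2 fold change 0.168), and none rose and 1 fell in shIMPDH2 (median 0.143). Of the 22 with a window that lacked it, 6 rose and 2 fell in shIMPA1 (median -0.006), and none rose and 1 fell in shIMPDH2 (median -0.001). Beside these counts, 14.0% of all genes rose and 16.2% fell in shIMPA1, and 7.86% rose and 9.15% fell in shIMPDH2. MYC mRNA itself had 6744 and 5322 normalized reads in shIMPA1, 3157 and 3116 in shIMPDH2 and 4659 and 5206 in shLuc. It was lower in shIMPDH2 than in shLuc (log2 fold change -0.65, SE 0.14, adjusted p = 0.00915 by limma) and did not pass the test in shIMPA1 (log2 fold change 0.28, adjusted p = 0.145). A match of letters is a description and not a site in use, and the part of MYC in these values was not tested.

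Of the 5 polymerase I subunits, 1 rose and 1 fell in shIMPA1 (40.0% called, beside 30.2% of all genes). In shIMPDH2 none was called in either direction by limma, edgeR or DESeq2, beside 17.0% of all genes called by limma. None had an unadjusted p under 0.05 there by limma. POLR1A, the largest catalytic subunit, had 1267 and 1152 normalized reads in shIMPA1, 1535 and 1322 in shIMPDH2 and 1255 and 1373 in shLuc. POLR1B, which completes the active centre, had 792 and 807 normalized reads in shIMPA1, 871 and 789.5 in shIMPDH2 and 744 and 853 in shLuc. The 3 groups overlapped for POLR1B, and both subunits stayed short of the threshold, with 95% intervals of the log2 fold change of -0.40 to 0.16 for POLR1A and -0.28 to 0.29 for POLR1B in shIMPA1, and of -0.16 to 0.40 and -0.22 to 0.34 in shIMPDH2.

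POLR1D, a small subunit shared with RNA polymerase III, had 2822 and 3568 normalized reads in shIMPA1, 2119 and 2227 in shIMPDH2 and 2412 and 2398 in shLuc. Both shIMPA1 libraries lay above the other 4, and the rise over shLuc passed the test (log2 fold change 0.40, SE 0.13, adjusted p = 0.0409). POLR1E, a subunit specific to polymerase I, had 560.1 and 459.9 normalized reads in shIMPA1, 652 and 625 in shIMPDH2 and 656 and 732 in shLuc. The shIMPA1 libraries were the lowest of the 6 (log2 fold change -0.45, SE 0.14, adjusted p = 0.0327). POLR1C, the partner of POLR1D in both polymerases, was not called (log2 fold change 0.10, adjusted p = 0.601 in shIMPA1 and log2 fold change 0.19, adjusted p = 0.336 in shIMPDH2). The POLR1D rise was 0.23 on the log2 scale without shIMPA1 replicate 2, and neither POLR1D nor POLR1E was called without that library or without either shLuc or shIMPDH2 library (adjusted p of up to 0.179 and 0.218).

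RRN3, the factor that makes the polymerase competent to initiate, showed the clearest rise among the 6 initiation factors. RRN3 (chr16:15060022-15094317, minus strand, in GENCODE 29 on GRCh38) had 1584 and 1789 normalized reads in shIMPA1, 1159.8 and 1184 in shIMPDH2 and 978 and 1137 in shLuc. Both shIMPA1 libraries lay above the other 4, at 1687 ± 145 on average, against 1172 ± 17.3 in shIMPDH2 and 1058 ± 112 in shLuc (SD, n = 2 each), which was 1.60-fold over shLuc (log2 fold change 0.67, SE 0.13, adjusted p = 0.00277). In shIMPDH2 the difference did not pass the test (log2 fold change 0.15, adjusted p = 0.444). The rise stayed called under each of the 16 alternatives run, with adjusted p of up to 0.0497 when 1 library was left out. GENCODE 29 names 2 pseudogenes after RRN3, and reads that also align to them may be missing from these counts.

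UBTF, the architectural factor of the ribosomal RNA genes, had 4686 and 3807 normalized reads in shIMPA1, 5280.5 and 5477 in shIMPDH2 and 4542 and 4700.0 in shLuc. It was below shLuc in 1 shIMPA1 library and within its range in the other, above it in both shIMPDH2 libraries, and not called in either (log2 fold change -0.13, adjusted p = 0.486 in shIMPA1 and log2 fold change 0.22, adjusted p = 0.276 in shIMPDH2). Among the 4 SL1 subunits TAF1A was lowest relative to shLuc in both knockdowns, with all 4 knockdown libraries below both shLuc libraries, without passing the test (log2 fold change -0.40, adjusted p = 0.0910 in shIMPA1 and log2 fold change -0.49, adjusted p = 0.0661 in shIMPDH2). TAF1B, TAF1C and TAF1D had log2 fold changes of -0.08, 0.07 and -0.08 in shIMPA1, and of 0.06, 0.14 and -0.30 in shIMPDH2.

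FBL, the fibrillarin methyltransferase of the box C/D particles, fell in shIMPA1 and in shIMPDH2. FBL (chr19:39834458-39846414, minus strand) had 4800.0 and 4056 normalized reads in shIMPA1, 5063 and 5595 in shIMPDH2 and 8022 and 8036 in shLuc, and its promoter window is the first of those printed above. All 4 knockdown libraries lay below both shLuc libraries. It averaged 4428 ± 526 in shIMPA1, 5329 ± 376 in shIMPDH2 and 8029 ± 9.51 in shLuc (SD, n = 2 each), 1.82-fold below shLuc in shIMPA1 (log2 fold change -0.86, SE 0.13, adjusted p = 0.000739) and 1.51-fold below it in shIMPDH2 (log2 fold change -0.59, SE 0.13, adjusted p = 0.0102). The shIMPA1 call held under each of the 16 alternatives, whereas the shIMPDH2 call was lost without either shLuc library or either shIMPDH2 library (adjusted p of up to 0.122).

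Of the other core proteins of the same particle, NOP56 rose in shIMPA1 and NOP58 did not pass the test. NOP56, which holds the guide RNA together with NOP58, had 5978 and 6833 normalized reads in shIMPA1, 4062 and 4469.5 in shIMPDH2 and 4682 and 5226 in shLuc. Both shIMPA1 libraries lay above shLuc and both shIMPDH2 libraries below it, and only the shIMPA1 difference passed the test (log2 fold change 0.37, SE 0.13, adjusted p = 0.0487), narrowly. edgeR gave it an adjusted p of 0.0511, and it was not called without shIMPA1 replicate 2 nor when any 1 of the shLuc or shIMPDH2 libraries was left out (adjusted p of up to 0.268). GENCODE 29 names 3 pseudogenes after NOP56. NOP58 was not called (log2 fold change -0.15, adjusted p = 0.453 in shIMPA1 and log2 fold change 0.16, adjusted p = 0.471 in shIMPDH2).

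Of the 4 box H/ACA proteins, GAR1 rose in shIMPA1. It had 923 and 996 normalized reads in shIMPA1, 775 and 848 in shIMPDH2 and 695 and 775 in shLuc, with both shIMPA1 libraries above the other 4 (log2 fold change 0.39, SE 0.13, adjusted p = 0.0400). DESeq2 gave it an adjusted p of 0.0589, and limma did not call it when any 1 of the shLuc or shIMPDH2 libraries was left out (adjusted p of up to 0.250). DKC1, the pseudouridine synthase, NHP2 and NOP10 were not called in either knockdown, with log2 fold changes of -0.17, 0.17 and -0.32 in shIMPA1, and of 0.00, 0.09 and 0.24 in shIMPDH2. GENCODE 29 places 27.4% of the exonic bases of NHP2 opposite an exon of another gene, and whether strand was used in counting is not given in the sources used here.

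TCOF1 fell in shIMPA1, alone among the 4 nucleolar phosphoproteins. It encodes treacle, which binds polymerase I and UBTF and is mutated in Treacher Collins syndrome. TCOF1 (chr5:150357629-150400308, plus strand) had 2211 and 1254 normalized reads in shIMPA1, 2379 and 2297 in shIMPDH2 and 2914 and 3372 in shLuc. The knockdown libraries all lay below shLuc, and shIMPA1 replicate 2 was far below replicate 1. The shIMPA1 group was 1.88-fold below shLuc (log2 fold change -0.91, SE 0.21, adjusted p = 0.00816). Without shIMPA1 replicate 2 the log2 fold change was -0.50, without replicate 1 it was -1.32, and without shLuc replicate 2 the gene was not called (adjusted p = 0.0967). In shIMPDH2 the difference did not pass the test (log2 fold change -0.42, adjusted p = 0.194).

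NPM1, the histone chaperone that makes up much of the outer nucleolus, had 33246 and 39659 normalized reads in shIMPA1, 34431 and 40902 in shIMPDH2 and 39284 and 37137 in shLuc. NCL, the nucleolin that binds the nascent precursor, had 23135 and 23187 normalized reads in shIMPA1, 23582 and 24556 in shIMPDH2 and 22682 and 24252 in shLuc. Both were among the most abundant members and neither was called, with 95% intervals of -0.44 to 0.29 for NPM1 and -0.32 to 0.28 for NCL in shIMPA1, and -0.39 to 0.34 and -0.27 to 0.34 in shIMPDH2. GENCODE 29 names 45 pseudogenes after NPM1, so its counts of uniquely aligned reads may be incomplete. NOLC1, a chaperone of the small nucleolar particles, had log2 fold changes of -0.29 (adjusted p = 0.0937) in shIMPA1 and 0.14 (adjusted p = 0.466) in shIMPDH2.

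**Figure D3:**
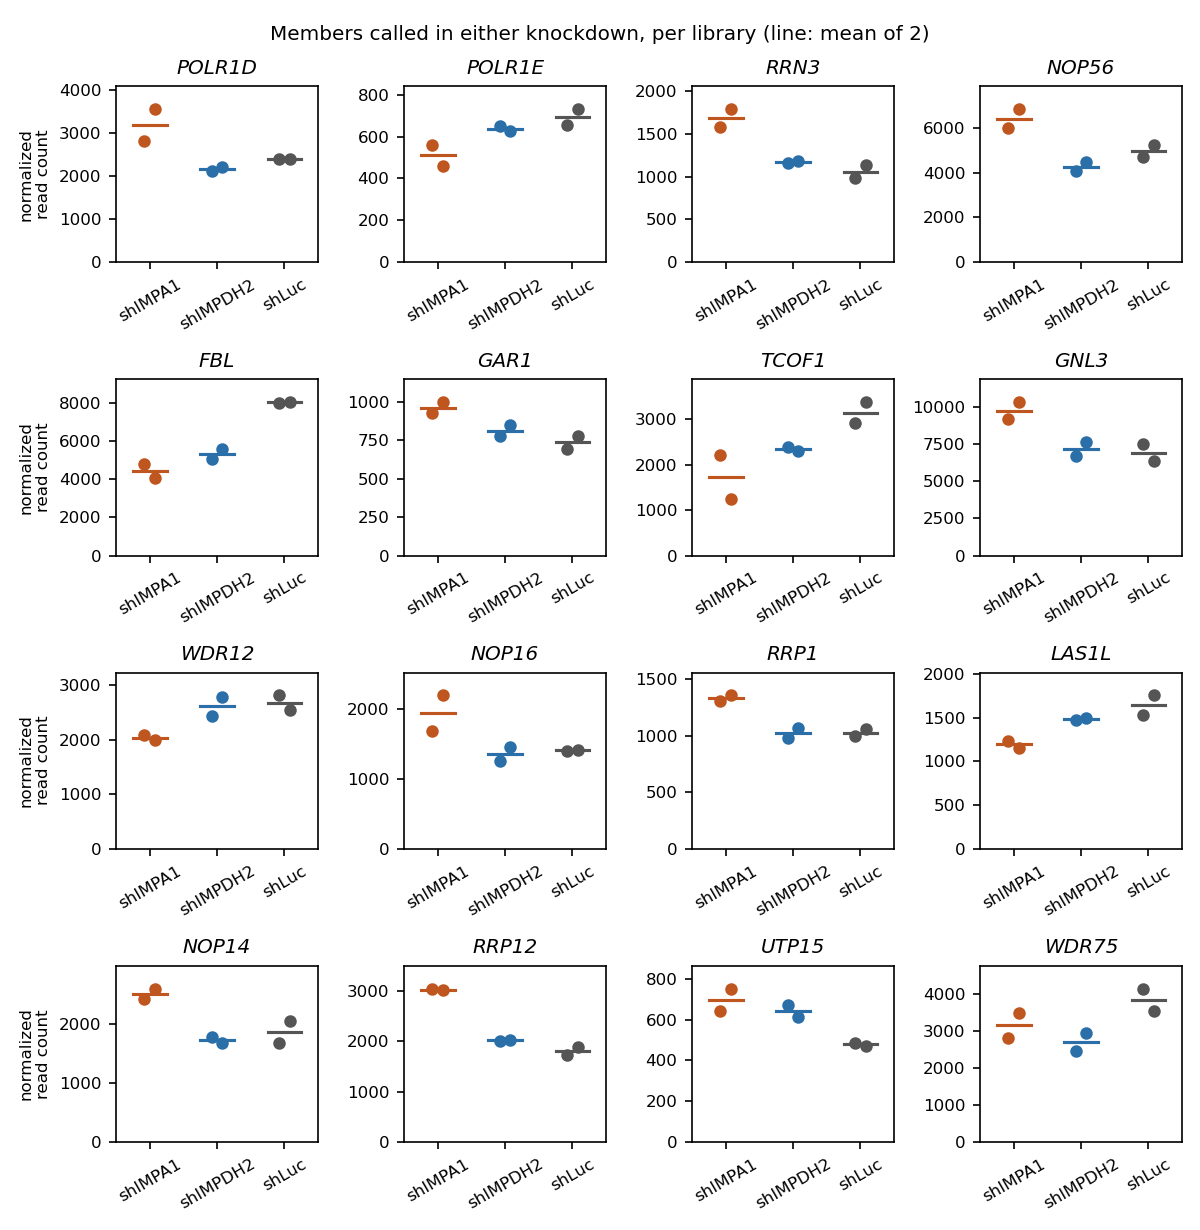
Normalized reads of the 16 genes called in shIMPA1 or shIMPDH2 against shLuc, 1 point per library and a line at the mean of 2, each panel with its own axis from 0. For RRN3 and RRP12 the shIMPA1 points stand above the other 4, for FBL all 4 knockdown points stand below the shLuc points at 8022 and 8036, and for TCOF1 the shIMPA1 points are far apart.

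Of the 3 GTP-binding proteins, GNL3 rose in shIMPA1 (33.3% called, near the 30.2% of all genes). None passed the test in shIMPDH2, beside 17.0% of all genes called. GNL3, nucleostemin, whose stay in the nucleolus depends on bound GTP, had 9217 and 10336 normalized reads in shIMPA1, 6709.5 and 7679 in shIMPDH2 and 7490.3 and 6344 in shLuc. The shIMPA1 libraries were the highest of the 6, 1.42-fold over shLuc (log2 fold change 0.50, SE 0.14, adjusted p = 0.0193), while the shIMPDH2 and shLuc libraries overlapped (log2 fold change 0.06, adjusted p = 0.808). The rise was not called without shLuc replicate 2 (adjusted p = 0.167). GNL3 lies at chr3:52681156-52694492, plus strand, and its RefSeq window with CACGTG is printed above.

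GNL2, an assembly GTPase of the large subunit, had 2116 and 2207 normalized reads in shIMPA1, 2431 and 2757 in shIMPDH2 and 2289 and 2379 in shLuc. GNL3L, a relative of nucleostemin, had 480.2 and 394 normalized reads in shIMPA1, 356 and 271 in shIMPDH2 and 382 and 409.5 in shLuc. Neither was called: GNL2 was slightly below shLuc in both shIMPA1 libraries and above it in both shIMPDH2 libraries, and GNL3L was below it in both shIMPDH2 libraries. The 95% intervals in shIMPDH2, where guanine nucleotide synthesis is the target, were -0.11 to 0.41 for GNL2, -0.25 to 0.36 for GNL3 and -0.72 to 0.02 for GNL3L.

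Among large-subunit factors, 2 rose and 2 fell in shIMPA1 and none passed the test in shIMPDH2. Over all genes, 30.2% were called in shIMPA1 and 17.0% in shIMPDH2. BOP1, PES1 and WDR12 form the PeBoW complex, which is needed to process the precursor of the large subunit RNA. WDR12 had 2083 and 1987 normalized reads in shIMPA1, 2439.8 and 2777 in shIMPDH2 and 2807 and 2547 in shLuc, and both shIMPA1 libraries lay below the rest (log2 fold change -0.39, SE 0.12, adjusted p = 0.0308). Its partners were not called, PES1 at 0.36 (adjusted p = 0.0580) and BOP1 at -0.25 (adjusted p = 0.193) on the log2 scale in shIMPA1, and at 0.26 and -0.22 in shIMPDH2. The signs for PES1 were thus opposite to those for BOP1 within this complex. LAS1L, the endonuclease that cuts the internal spacer of the large-subunit precursor, had 1237 and 1158 normalized reads in shIMPA1, 1471 and 1499 in shIMPDH2 and 1527 and 1754 in shLuc. It was lowest in the shIMPA1 libraries (log2 fold change -0.45, SE 0.12, adjusted p = 0.0167). RRP1, a processing factor named after its yeast counterpart, had 1301 and 1354 normalized reads in shIMPA1, 981 and 1071 in shIMPDH2 and 997 and 1055 in shLuc, with both shIMPA1 libraries above the other 4 (log2 fold change 0.37, SE 0.12, adjusted p = 0.0351). NOP16, an assembly factor known from yeast, had 1678 and 2186 normalized reads in shIMPA1, 1251 and 1455 in shIMPDH2 and 1389.7 and 1416 in shLuc. It was highest in shIMPA1 replicate 2 (log2 fold change 0.45, SE 0.14, adjusted p = 0.0372), without which its log2 fold change was 0.26 and not called, and 20.0% of its exonic bases lie opposite an exon of another gene. NOP2, a cytosine methyltransferase of the large subunit RNA, was not called (log2 fold change 0.09, adjusted p = 0.627 in shIMPA1 and log2 fold change 0.08, adjusted p = 0.711 in shIMPDH2), and part of its exons is also annotated to another gene on its strand. LAS1L was not called without shLuc replicate 2, and WDR12, RRP1 and NOP16 were not called when any 1 of the shLuc or shIMPDH2 libraries was left out (adjusted p of up to 0.158, 0.204, 0.196 and 0.177 for LAS1L, WDR12, RRP1 and NOP16).

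Small-subunit factors had the highest median of the role groups in shIMPA1, a log2 fold change of 0.305 over 9 genes, of which 3 rose and none fell (33.3% called, near the 30.2% of all genes). RRP12, an export and processing factor (chr10:97356358-97426076, minus strand), had 3038 and 3008 normalized reads in shIMPA1, 2009 and 2023 in shIMPDH2 and 1721 and 1888 in shLuc. Both shIMPA1 libraries lay well above the other 4, at 3023 ± 21.5 on average, against 2016 ± 10.2 in shIMPDH2 and 1804 ± 118 in shLuc (SD, n = 2 each), 1.68-fold over shLuc (log2 fold change 0.75, SE 0.11, adjusted p = 0.000837). This call held under each of the 16 alternatives. In shIMPDH2 the libraries lay above shLuc by less and the difference was not called (log2 fold change 0.16, 95% interval -0.09 to 0.41).

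UTP15 belongs to the subcomplex that joins transcription of the precursor to its processing, together with WDR43 and WDR75. It had 644 and 752 normalized reads in shIMPA1, 674 and 611 in shIMPDH2 and 485 and 472 in shLuc. All 4 knockdown libraries lay above both shLuc libraries, a difference that passed the test in shIMPA1 (log2 fold change 0.54, SE 0.13, adjusted p = 0.0117) and just missed it in shIMPDH2 (log2 fold change 0.42, SE 0.13, adjusted p = 0.0522). The shIMPA1 call was lost without either shLuc library (adjusted p of up to 0.0942). NOP14, an early assembly factor, had 2414 and 2596 normalized reads in shIMPA1, 1778 and 1685 in shIMPDH2 and 1671 and 2051 in shLuc, with both shIMPA1 libraries above the rest (log2 fold change 0.43, SE 0.13, adjusted p = 0.0269). Its log2 fold change was 0.29 and not called without shLuc replicate 1, nor was it called without either shIMPDH2 library, and 17.1% of its exonic bases lie opposite its antisense gene.

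WDR75 was the other gene to fall in shIMPDH2, and its library values are given after they were seen. It had 2801 and 3493 normalized reads in shIMPA1, 2469 and 2944 in shIMPDH2 and 4139 and 3551 in shLuc. All 4 knockdown libraries lay below both shLuc libraries, and the shIMPDH2 difference was 1.42-fold (log2 fold change -0.51, SE 0.15, adjusted p = 0.0379), while the shIMPA1 difference did not pass the test (log2 fold change -0.29, adjusted p = 0.158). The shIMPDH2 call was lost without either shLuc or either shIMPDH2 library (adjusted p of up to 0.287). WDR43 of the same subcomplex was above shLuc without being called (log2 fold change 0.30, adjusted p = 0.115 in shIMPA1 and log2 fold change 0.23, adjusted p = 0.281 in shIMPDH2). The remaining members, RRP9 of the U3 particle, UTP14A, UTP20 and BYSL, had log2 fold changes between -0.30 (RRP9) and 0.34 (UTP20) in shIMPA1 and between -0.05 (RRP9) and 0.28 (UTP20) in shIMPDH2, and none was called.

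Set directly against each other, shIMPDH2 and shIMPA1 cells differed in 10 of the 41 genes, 24.4% beside a background of 26.1% of all genes (13.5% higher and 12.6% lower in shIMPDH2). The members' median log2 fold change was 0.048, beside -0.004 for all genes, and none differed by as much as 2-fold, whereas 3.71% of all genes were more than 2-fold higher and 4.75% more than 2-fold lower. Lower in shIMPDH2 were 8 genes: NOP56 (log2 fold change -0.58, adjusted p = 0.00743), RRP12 (log2 fold change -0.58, adjusted p = 0.00401), POLR1D (log2 fold change -0.55, adjusted p = 0.0120), NOP14 (log2 fold change -0.53, adjusted p = 0.0124), RRN3 (log2 fold change -0.52, adjusted p = 0.0123), NOP16 (log2 fold change -0.51, adjusted p = 0.0258), GNL3 (log2 fold change -0.44, adjusted p = 0.0369) and RRP1 (log2 fold change -0.37, adjusted p = 0.0389), by limma. Higher in shIMPDH2 were NOP10 and NOLC1. NOP10 had 3309.7 and 4118 normalized reads in shIMPDH2 against 2572 and 2433 in shIMPA1 (log2 fold change 0.56, SE 0.14, adjusted p = 0.0119). NOLC1 had 5978 and 5987 in shIMPDH2 against 4368 and 4552 in shIMPA1 (log2 fold change 0.42, SE 0.12, adjusted p = 0.0239). In both genes shLuc lay between or within the knockdown values, at 3312 and 2929.7 for NOP10 and 5118 and 5781 for NOLC1. FBL, which was below shLuc in both knockdowns, did not differ between them beyond the threshold (log2 fold change 0.27, adjusted p = 0.145). None of the 10 stayed called in every reduced set: all but NOP10 were lost without either shIMPDH2 library, and NOP10 was lost without shIMPDH2 replicate 2 (adjusted p = 0.166).

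Levels of different genes were compared as RPKM, reads scaled for exonic length and library size. NPM1 was highest, with means of 402 RPKM in shIMPA1, 399 in shIMPDH2 and 408 in shLuc. NOP10 followed in shLuc with 191, 271 and 230 RPKM in shIMPA1, shIMPDH2 and shLuc. FBL was at 86.1, 99.4 and 151 RPKM in the same order, and NCL at 141, 141 and 138. In shLuc, FBL thus stood above NCL, whereas in both knockdowns it stood below it. RRN3 had 17.1, 11.4 and 10.4 RPKM, and UTP15 was the lowest member in shLuc with 4.66, 4.13 and 3.09 RPKM.

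Several members carry small nucleolar RNAs in their introns, the guides of the particles described above. GENCODE 29 places at least 1 inside 8 of the 41 genes, from 1 in POLR1C to 6 in GNL3 and 8 in TAF1D. Of these 8, NOP56 and GNL3 rose in shIMPA1 and none fell, with a median log2 fold change of 0.040, beside 14.0% of all genes that rose and 16.2% that fell. None of the 8 passed the test in shIMPDH2, with a median of 0.048, beside 17.0% of all genes called. A further list held 15 host genes of small nucleolar RNAs outside the 41. GENCODE 29 annotates 14 of them as noncoding and SNHG32 as protein coding. The list was chosen with earlier results of these data known, and its counts were not among the planned results. In shIMPA1, 5 rose and none fell (33.3% called, near the 30.2% of all genes, with a median log2 fold change of 0.257), and in shIMPDH2, 7 fell, SNHG32 among them, and none rose (46.7% called, beside 17.0% of all genes, with a median of -0.345). No gene of the list had an unadjusted p under 0.05 in the other direction by limma in either knockdown, and edgeR and DESeq2 each called 5 higher in shIMPA1 and 6 lower in shIMPDH2. Between the knockdowns, 13 of the 15 were lower in shIMPDH2 (86.7% called, beside 26.1% of all genes, with a median of -0.708 beside -0.004), and without shIMPDH2 replicate 1 this count was 5. The summed list took 0.336% and 0.367% of the reads in shIMPA1, 0.184% and 0.203% in shIMPDH2, and 0.278% and 0.245% in shLuc. ZFAS1 had 5049.5 and 5472 normalized reads in shIMPA1, 1864 and 2312 in shIMPDH2 and 3626 and 2789.7 in shLuc. Its shIMPA1 libraries lay above shLuc and its shIMPDH2 libraries below it, and both differences passed the test (log2 fold change 0.72, SE 0.15, adjusted p = 0.00524 in shIMPA1 and log2 fold change -0.61, SE 0.15, adjusted p = 0.0197 in shIMPDH2). SNHG3 had 1133 and 1412 normalized reads in shIMPA1, 506 and 536 in shIMPDH2 and 858 and 854 in shLuc, in the same order (log2 fold change 0.56, SE 0.14, adjusted p = 0.0102 in shIMPA1 and log2 fold change -0.71, SE 0.14, adjusted p = 0.00513 in shIMPDH2). SNHG8 had 7645 and 8820.3 normalized reads in shIMPA1, 4214 and 4995 in shIMPDH2 and 5239 and 3765 in shLuc, and SNHG7 had 3858 and 5007 normalized reads in shIMPA1, 2519.5 and 2748 in shIMPDH2 and 2886 and 2570.1 in shLuc. Both rose in shIMPA1 (log2 fold change 0.89 with adjusted p = 0.00275 for SNHG8, and 0.69 with adjusted p = 0.00466 for SNHG7) and overlapped shLuc in shIMPDH2. Leaving out 1 library gave 1 to 7 genes that rose in shIMPA1, the fewest without shLuc replicate 2, and 0 to 11 that fell in shIMPDH2, with 0 without shLuc replicate 1 or either shIMPDH2 library and 1 without shLuc replicate 2. Without a mean-variance trend, 4 rose in shIMPA1 and 1 fell in shIMPDH2.

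**Figure D4:**
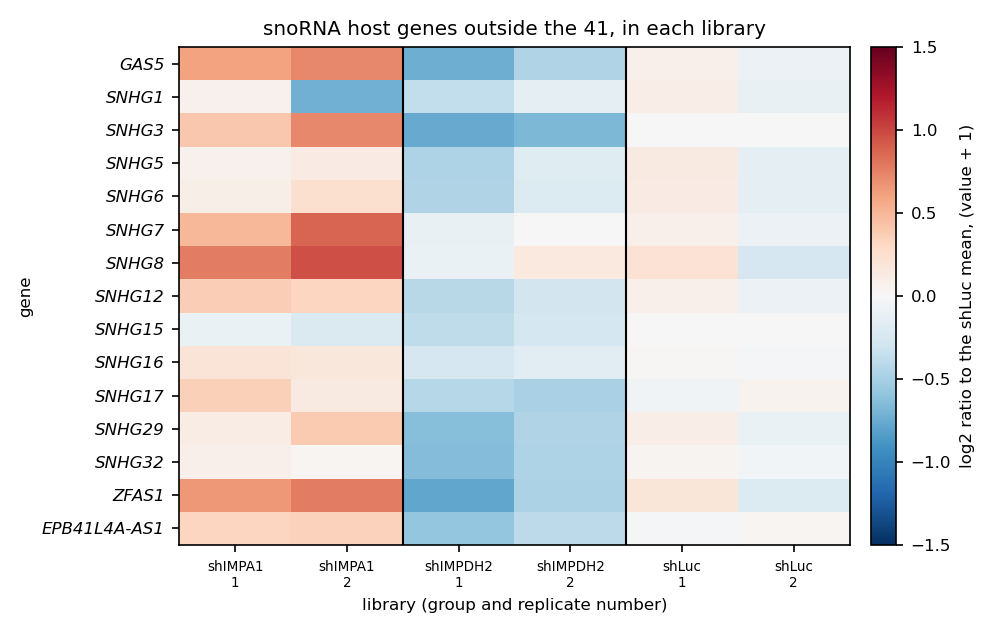
The 15 small nucleolar RNA host genes outside the 41 (rows) in each of the 6 libraries (columns), as log2 of the ratio to the shLuc mean on the (value + 1) scale, red for higher and blue for lower. GAS5, SNHG3 and ZFAS1 are red in both shIMPA1 libraries and blue in both shIMPDH2 libraries.

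The wider pathway was read through further lists of its genes. Of 41 further small-subunit factors tested, 4 rose and 4 fell in shIMPA1 (19.5% called, beside 30.2% of all genes, with a median log2 fold change of 0.052), and 2 rose in shIMPDH2 (4.88% called, beside 17.0%, with a median of 0.160). The calls with the smallest adjusted p were PNO1 (log2 fold change 0.61, adjusted p = 0.00426) and NOL6 (log2 fold change 0.62, adjusted p = 0.00887) upwards in shIMPA1, and TBL3 (log2 fold change -0.50, adjusted p = 0.00984) and MPHOSPH10 (log2 fold change -0.48, adjusted p = 0.00999) downwards. MPHOSPH10, a U3 particle protein, rose in shIMPDH2 (log2 fold change 0.38, adjusted p = 0.0431). Of 47 further large-subunit factors, 6 rose and 5 fell in shIMPA1 (23.4% called, median 0.128), and 5 rose in shIMPDH2 (10.6% called, median 0.074). EBNA1BP2 (log2 fold change 0.66, adjusted p = 0.00483) and the helicase DDX27 (log2 fold change 0.55, adjusted p = 0.00706) rose in shIMPA1, NOC2L fell there (log2 fold change -0.44, adjusted p = 0.0189), and DDX27 (log2 fold change 0.45, adjusted p = 0.0284) and SDAD1 (log2 fold change 0.51, adjusted p = 0.0180) rose in shIMPDH2. No gene of these 2 lists was called lower in shIMPDH2 by limma, edgeR or DESeq2, with 0 small-subunit and 2 large-subunit genes lower at an unadjusted p under 0.05.

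Of 13 genes of the RNA exosome and its helicase cofactor, which trim precursor ends, 2 fell in shIMPA1 (15.4% called, median -0.289), EXOSC9 (log2 fold change -0.73, adjusted p = 0.00160) and EXOSC2 (log2 fold change -0.37, adjusted p = 0.0364). For this and the following lists, the shares of all genes called were 30.2% in shIMPA1 and 17.0% in shIMPDH2. Of 10 RNA polymerase III subunits, 3 rose and 1 fell in shIMPA1 (40.0% called, median 0.250), POLR3B (log2 fold change 0.52, adjusted p = 0.00844) and CRCP (log2 fold change 0.45, adjusted p = 0.0139) among those higher and POLR3K lower (log2 fold change -0.45, adjusted p = 0.0217), and POLR3C rose in shIMPDH2 (log2 fold change 0.59, adjusted p = 0.0231). Of 9 assembly factors of the small nucleolar particles, none was called in either knockdown by limma, edgeR or DESeq2, with 3 in shIMPA1 and 0 in shIMPDH2 at an unadjusted p under 0.05. Of 6 further genes of RNA polymerase I transcription, CAVIN1 fell in both (log2 fold change -0.92, adjusted p = 0.00161 in shIMPA1 and log2 fold change -1.28, adjusted p = 0.000381 in shIMPDH2). CAVIN1 releases transcripts at termination and is also the coat protein of caveolae. Among 4 genes tied to the smallest ribosomal RNA (its binding proteins RPL5 and RPL11, its transcription factor GTF3A and the assembly factor HEATR3), RPL11 fell (log2 fold change -0.80, adjusted p = 0.00219) and GTF3A rose (log2 fold change 0.45, adjusted p = 0.0206) in shIMPA1.

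**Figure D5:**
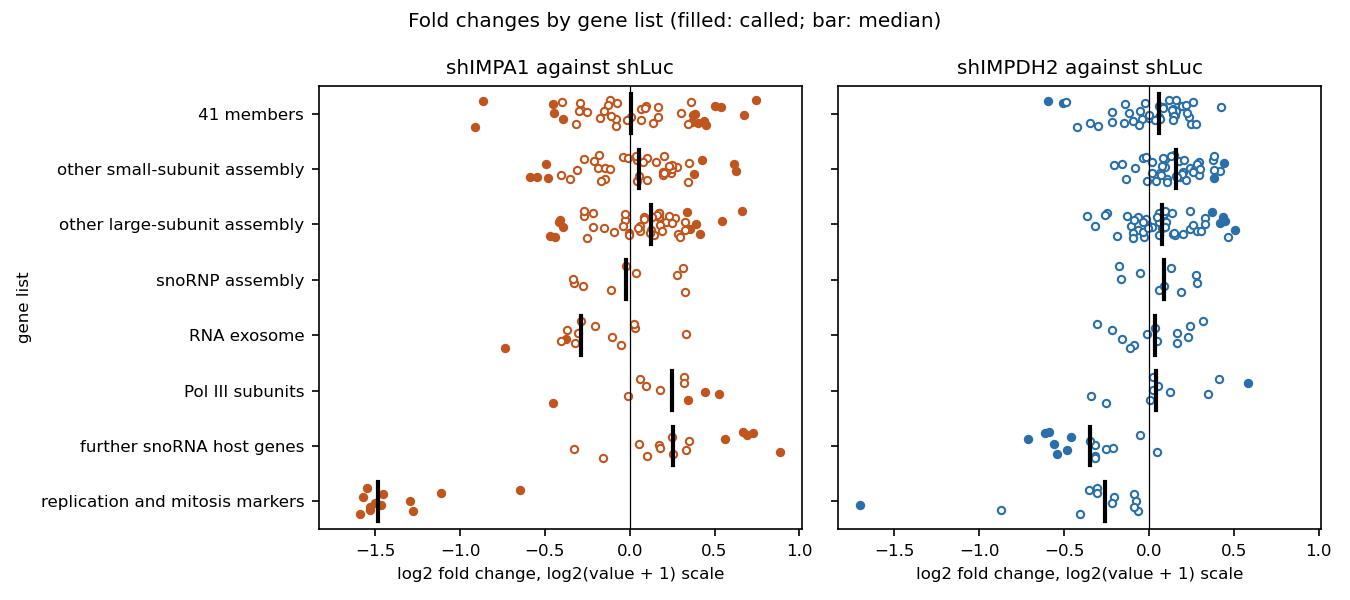
Log2 fold change against shLuc, on the log2(value + 1) scale, of each gene of 8 lists (rows) in shIMPA1 (left) and shIMPDH2 (right); filled points passed an adjusted p of 0.05 and bars are list medians. The 41 members spread to both sides of 0 in shIMPA1 (median 0.006), the further small nucleolar RNA host genes lie mostly above 0 in shIMPA1 (median 0.257) and below it in shIMPDH2 (median -0.345), and the replication and mitosis markers lie far below 0 in shIMPA1 (median -1.484).

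Genes of DNA replication and mitosis were lower in shIMPA1, and less so in shIMPDH2 except for MCM3. All 12 markers fell in shIMPA1 by limma (median log2 fold change -1.484), beside 16.2% of all genes that fell. In shIMPDH2, 1 of the 12, MCM3, fell (8.33%, near the 9.15% of all genes that fell, with a median of -0.262). All 12 had negative log2 fold changes there. That of MCM3 was -1.70 (adjusted p = 8.68e-06 by limma), beside -1.47 in shIMPA1. MCM3 had 3936 and 4167 normalized reads in shIMPDH2 and 12998 and 13375 in shLuc. edgeR and DESeq2 called 12 and 10 lower in shIMPA1, and 2 and 1 lower in shIMPDH2. Their summed share of the reads was 0.200% and 0.134% in shIMPA1, 0.277% and 0.276% in shIMPDH2, and 0.351% and 0.382% in shLuc. MKI67, a proliferation marker, had 2415 and 753 normalized reads in shIMPA1, 3386 and 2764 in shIMPDH2 and 3822 and 4304 in shLuc, and the lower of its shIMPA1 libraries was replicate 2, as for TCOF1. The genes of this list with the smallest adjusted p by limma in either knockdown were MCM3, MCM6, CDC6 and MCM4. In shIMPA1 they had 4732 and 4804, 1387 and 1131, 1118 and 748, and 4048 and 2737 normalized reads. Replicate 2 was thus lower for MCM6, CDC6 and MCM4 but not for MCM3. The 41 nucleolar genes took 0.631% and 0.659% of the reads in the same shIMPA1 libraries, beside 0.627% and 0.637% in shLuc. This sum weighs abundant genes most. NPM1 and NCL, neither of them called, held 37042 and 25776 of its 165406 reads in shIMPA1 replicate 1. The part of proliferation in the calls of single members was not tested.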

How the data were processed

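Polyadenylated RNA was sequenced from 6 libraries of 22RV1 cells, 2 per group. featureCounts of Subread 1.5.2 counted uniquely mapped exonic reads for each gene, per the labels' protocols, and Trimmomatic 0.36, STAR 2.5.2b and GRCh38 are named in the submitters' processing notes. The annotation release is not given in the sources used here, and the protocols say only that strand was used if the library kept it. Judged from its values, the deposited signal is a count the authors scaled by a single size factor in each library, since whole reads came back, within 0.05 reads, for 99.98% to 100% of genes. The deposited log2 fold change and p-value columns are the authors' own, for a comparison the header leaves unnamed, and these entered no test. Gene names were matched for 16275 identifiers in a name table and for 1475 in GENCODE 29, and 61 had none. The labels' groups were compared with limma 3.58.1 in R 4.3.3 on log2(value + 1), with a mean-variance trend, 1 coefficient per group over all 6 libraries, leaving 3 residual degrees of freedom, without a replicate term. This scale understates changes of genes with few reads. The 17742 genes that reached 10 normalized reads in 2 or more libraries were tested, and Benjamini-Hochberg adjusted two-sided p-values under 0.05 were called. SE is limma's moderated standard error. The script was tested on simulated data. edgeR 4.0.16 and DESeq2 1.42.0 were run on the recovered reads as alternatives, beside other pseudocounts, filters, scalings and left-out libraries. RPKM used recovered reads and GENCODE 29 exonic lengths. Library values are given in full for up to 3 called members of each role group with the smallest adjusted p, for the GNL genes and for RRN3, UBTF, POLR1A and POLR1B, and for NPM1, NCL, NOP10 and NOLC1 in addition, after their values were seen. Up to 4 genes of each further list, by smallest adjusted p, are named, and MKI67 is given outside that rule. The members and lists were chosen with earlier results of these data known. Libraries with the same number did not deviate together (correlations of 0 between shIMPA1 and shIMPDH2, 0.042 between shIMPA1 and shLuc and -0.049 between shIMPDH2 and shLuc), so the numbers were not treated as pairs.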

Additional observations from a re-analysis of the deposited data

How the results depend on the processing

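No called member changed direction under any of the 16 alternatives run. Other pseudocounts, no filter, TMM scaling, edgeR, DESeq2 and the replicate block kept at least 14 of the 15 calls in shIMPA1 and both calls in shIMPDH2. A filter at 50 normalized reads added 1 higher call in shIMPDH2, UTP15. Without a mean-variance trend, the genes called over the whole table numbered 3508 in shIMPA1, 1727 in shIMPDH2 and 2909 between the knockdowns. Members called were then 3 higher and 1 lower in shIMPA1, 0 lower in shIMPDH2, and 0 higher and 2 lower in shIMPDH2 against shIMPA1. Fits of 2 groups only called 6382 genes in shIMPDH2, where 3 members were higher and 6 lower, and called 4 members higher and 3 lower in shIMPA1 and 5 lower in shIMPDH2 against shIMPA1. The cause of these differences was not tested.
With 1 library left out, the lone library of a group was assumed to vary like the others. The called genes then numbered 2147 to 7940 in shIMPA1, 773 to 6386 in shIMPDH2 and 1430 to 7052 between the knockdowns. Members called ranged from 3 to 13 higher and 1 to 10 lower in shIMPA1, from 0 to 3 higher and 0 to 6 lower in shIMPDH2, and from 0 to 10 higher and 0 to 10 lower in shIMPDH2 against shIMPA1. Higher calls in shIMPA1 were fewest, 3, without either shLuc library, and lower calls were fewest, 1, without shLuc replicate 2 and most, 10, without shIMPA1 replicate 1. The calls in shIMPDH2 were 0 without either shLuc or either shIMPDH2 library, and 6 lower and 3 higher without either shIMPA1 library. Between the knockdowns, lower calls were 0 without either shIMPDH2 library, and higher calls were 0 without shIMPDH2 replicate 2 and 10 without shIMPA1 replicate 1.
With the replicate number as a block, 11 members were higher and 5 lower in shIMPA1, and 0 higher and 2 lower in shIMPDH2. The block ended 1 call between the knockdowns, RRP1 (limma adjusted p = 0.0509), as did DESeq2. It left 6 of the small nucleolar RNA host genes lower in shIMPDH2 and 12 lower in shIMPDH2 against shIMPA1.
Signs also turned for genes near 0 that were not called: POLR1B in shIMPA1 was -0.005 with DESeq2, DKC1 in shIMPDH2 was -0.001 with edgeR and -0.009 with DESeq2, and RRP1 in shIMPDH2 was 0.001 with edgeR and 0.000 with TMM. In shIMPA1, the log2 fold changes of 12 uncalled genes took the other sign with a library left out, and ranged over the 6 left-out fits as follows: POLR1B -0.094 to 0.105, POLR1C -0.030 to 0.226, TAF1B -0.171 to 0.007, TAF1C -0.001 to 0.133, TAF1D -0.279 to 0.123, UBTF -0.279 to 0.020, NOP58 -0.341 to 0.038, NPM1 -0.200 to 0.054, NCL -0.066 to 0.030, GNL3L -0.005 to 0.278, NOP2 -0.042 to 0.226 and BYSL -0.067 to 0.200. In shIMPDH2, the log2 fold changes of 12 uncalled genes took the other sign with a library left out, and ranged over the 6 left-out fits as follows: POLR1B -0.041 to 0.157, TAF1B -0.003 to 0.131, DKC1 -0.105 to 0.105, NHP2 -0.038 to 0.208, NPM1 -0.150 to 0.099, NCL -0.011 to 0.085, GNL3 -0.061 to 0.178, WDR12 -0.132 to 0.054, NOP16 -0.165 to 0.053, RRP1 -0.065 to 0.062, NOP14 -0.245 to 0.050 and RRP9 -0.229 to 0.127. In shIMPDH2 against shIMPA1, the log2 fold changes of 12 uncalled genes took the other sign with a library left out, and ranged over the 6 left-out fits as follows: POLR1B -0.018 to 0.123, POLR1C -0.033 to 0.222, TAF1A -0.313 to 0.138, NHP2 -0.232 to 0.064, NPM1 -0.080 to 0.175, BOP1 -0.130 to 0.198, PES1 -0.230 to 0.030, NOP2 -0.146 to 0.121, UTP14A -0.035 to 0.167, UTP20 -0.205 to 0.077, WDR43 -0.249 to 0.094 and BYSL -0.059 to 0.208. Over single members, 569 of the 656 alternative values in shIMPA1, 601 in shIMPDH2 and 587 between the knockdowns kept both direction and side of the threshold. With 2 libraries a group and 3 residual degrees of freedom, the width of the 95% intervals limits what could be called.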
